A study of Rattus norvegicus with 16 samples.

Results

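Acta2, Tagln, Myl9, Des, Reln, Lrat, Vim, Lox and Cygb are 9 genes that mark hepatic stellate cells or the contractile state these cells take on when activated. Their rows were found by symbol among the 17168 genes of the deposited tables, and all 9 were present and passed the filter on low counts, which kept 11162 genes. The livers came from Sprague Dawley rats sampled at 20 weeks of age, after 8 weeks on their diet from the age of 12 weeks. The groups were Tspo knockout rats on a methionine- and choline-deficient (MCD) diet (KO-MCD), Tspo knockout rats on chow (KO-CHOW), wild-type rats on MCD (WT-MCD) and wild-type rats on chow (WT-CHOW), with 4 libraries each. MCD feeding is a model of fatty liver with inflammation and scarring, and Tspo encodes a cholesterol- and drug-binding protein in the outer membrane of mitochondria. The labels do not name the deleted stretch of Tspo, so its level is a limited check of genotype. Nor do they say that each library is a different rat, so the p-values describe only how these libraries vary, which may be technical.

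Stellate cells lie between the sinusoidal endothelium and the hepatocytes and store vitamin A as retinyl esters. In an injured liver they lose this store, gain smooth muscle proteins and secrete collagen. Quiescent stellate cells are known by lecithin retinol acyltransferase (Lrat), which makes the retinyl esters, by reelin (Reln), a secreted glycoprotein, by cytoglobin (Cygb), a globin, and in rodents by desmin (Des). Activated cells add smooth muscle alpha-actin (Acta2) and transgelin (Tagln), which portal fibroblasts and vascular smooth muscle also make.

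The libraries held 10749769 to 15347830 counts in KO-MCD, 11330051 to 12521173 in KO-CHOW, 10931121 to 15762660 in WT-MCD and 8745756 to 12896860 in WT-CHOW. Levels are CPM, counts scaled to a common library total, with TMM factors, and folds are log2 values with their standard error (SE), MCD minus chow or knockout minus wild type. Tspo itself stood at 1.02 to 4.17 CPM in KO-MCD and 0.656 to 4.42 CPM in KO-CHOW, against 7.63 to 9.34 CPM in WT-MCD and 3.61 to 5.23 CPM in WT-CHOW. The libraries labelled KO-MCD replicate 1 and KO-CHOW replicate 4 had the 4.17 and 4.42 CPM, within the range of WT-CHOW. For KO-CHOW replicate 4 the level thus goes against the label. KO-MCD replicate 1 lay below every WT-MCD library, so its level goes against the label only when set beside the other diet. A second measure, the mean log2 level of 15 long-message genes less the mean of 24 short-message genes (the long minus short index), set apart the same libraries and WT-CHOW replicate 4. It was -0.90, -1.63 and -0.65 in them, relative to the mean of WT-CHOW, against 1.08 to 1.70 in the other MCD libraries and -0.12 to 0.29 in the other chow libraries. Since the index differed with diet as well, it cannot be fully separated from diet in the results below. Values of the 9 genes without the libraries set apart, or with the index as a term, are given in some cases. These are where they change a call or move a called value by over 1.5 times. The 10 hepatocyte markers summed to 112500 to 135600 CPM in KO-MCD and 187800 to 250200 CPM in KO-CHOW, against 106300 to 146400 CPM in WT-MCD and 181200 to 223000 CPM in WT-CHOW. Most of this sum was Alb, at means of 70910 CPM in KO-MCD and 147100 CPM in KO-CHOW, against 71540 CPM in WT-MCD and 125900 CPM in WT-CHOW. Of the 10 markers, 5 were called lower on MCD and 0 higher in each genotype. In bulk liver, fewer cells of a type and less RNA per cell cannot be told apart.

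The diet changed 3 of the 9 genes in each genotype. In the knockout, Reln, Cygb and Acta2 rose and 0 of the 9 fell. In the wild type, Reln and Cygb rose and Myl9 fell. Reln and Cygb belong to stellate cell identity, and Myl9 and Acta2 to the contractile apparatus. These calls, from edgeR's quasi-likelihood test with a p-value adjusted across the whole table and held to 0.05, compare with 40.4% of all genes called in the knockout (21.9% up, 18.5% down), and 34.1% for the wild type (18.2% up, 15.9% down). The share of the 9 genes called was thus near that of all genes. The median fold of the 9 was 0.64 in the knockout, against 0.041 over all genes, and 0.31 in the wild type, against -0.00224 over all genes. The tests between genotypes called 0 of the 9 on either diet.

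**Figure D1:**
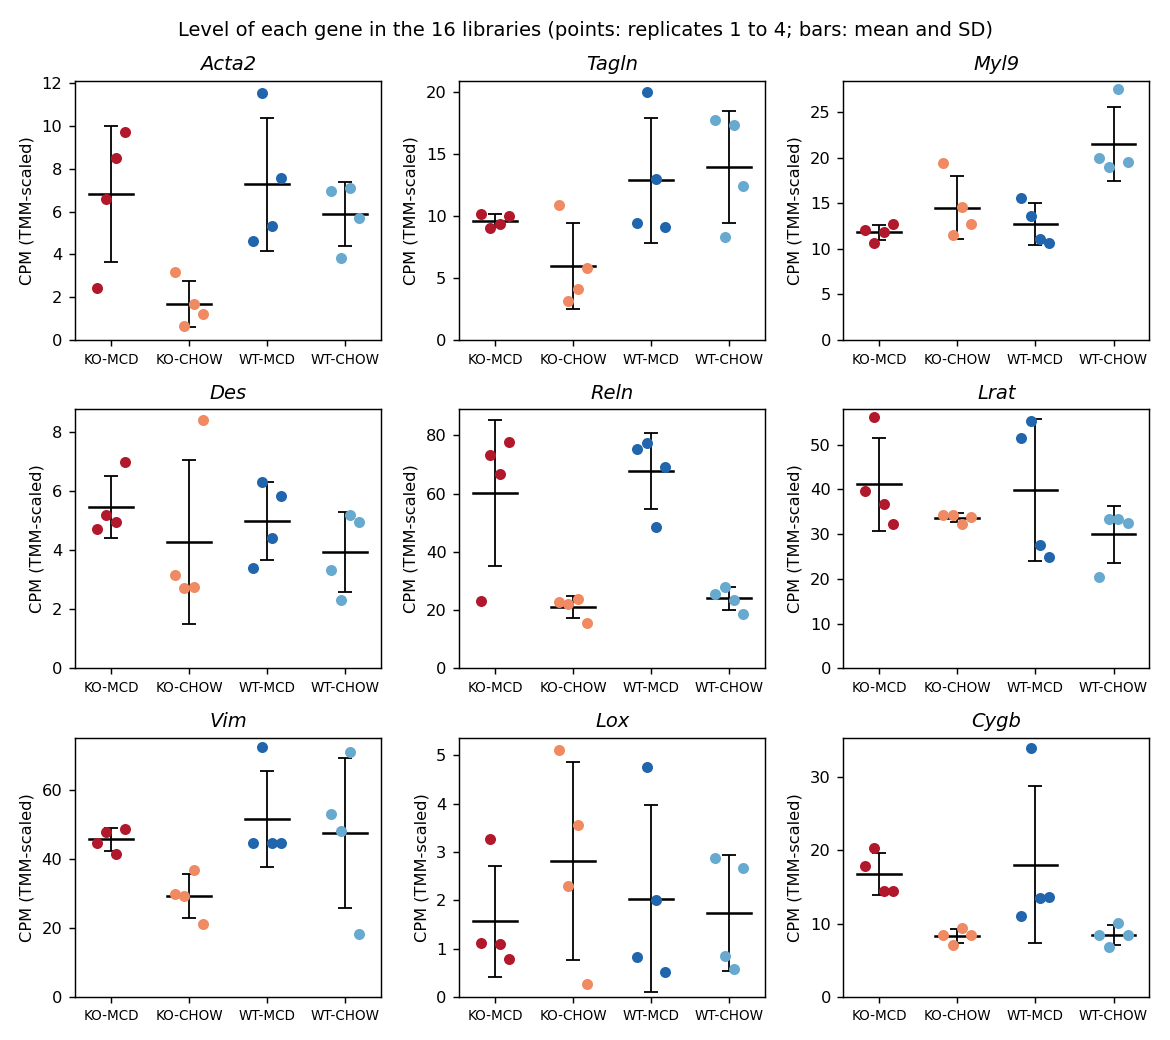
TMM-scaled CPM of each of the 9 genes in each library (points, replicates 1 to 4 from left to right), with the mean (wide bar) and SD of the 4 libraries of KO-MCD, KO-CHOW, WT-MCD and WT-CHOW; each panel has its own scale. Reln and Cygb lie higher in the MCD groups, except for 1 KO-MCD library of Reln at 23.1 CPM, and Acta2 has its lowest mean in KO-CHOW, 1.68 CPM.

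The promoter windows of Acta2, Lrat and Reln show how differently these genes begin. RefSeq's promoter table, on the GRCr8 build, held 5 of the 9 genes. Each window runs from 250 bases before the annotated start to 50 bases from it. Acta2 is at chr1:241172454-241172753 on the minus strand, Lrat at chr2:170571163-170571462 on the minus strand, and Reln at chr4:13628318-13628617 on the plus strand, all read in the direction of the gene. Capitals mark 3 motifs: the CArG box, to which serum response factor binds in smooth muscle genes (CC, then 6 bases of A or T, then GG, here with 1 of the 6 departing), TATAA, and GGGCGG on either strand, a binding motif of Sp factors.
Acta2: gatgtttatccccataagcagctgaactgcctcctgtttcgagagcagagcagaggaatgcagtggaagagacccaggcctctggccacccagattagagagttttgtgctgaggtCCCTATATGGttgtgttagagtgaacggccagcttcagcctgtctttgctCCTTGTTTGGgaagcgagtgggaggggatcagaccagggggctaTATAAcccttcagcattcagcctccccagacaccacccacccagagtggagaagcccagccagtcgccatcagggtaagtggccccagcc
Lrat: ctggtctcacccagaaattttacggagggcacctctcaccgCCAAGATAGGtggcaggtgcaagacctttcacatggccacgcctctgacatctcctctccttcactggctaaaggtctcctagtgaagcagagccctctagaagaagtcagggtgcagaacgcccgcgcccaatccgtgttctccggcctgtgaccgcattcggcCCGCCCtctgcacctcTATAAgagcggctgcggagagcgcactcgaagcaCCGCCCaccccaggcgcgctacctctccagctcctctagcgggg
Reln: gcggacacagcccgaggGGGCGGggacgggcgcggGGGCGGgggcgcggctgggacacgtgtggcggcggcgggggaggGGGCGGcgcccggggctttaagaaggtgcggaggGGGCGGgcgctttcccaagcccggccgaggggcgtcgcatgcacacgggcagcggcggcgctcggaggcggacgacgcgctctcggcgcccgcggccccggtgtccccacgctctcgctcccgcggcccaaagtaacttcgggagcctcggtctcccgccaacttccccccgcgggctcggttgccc
Acta2 had CArG-like boxes with 1 departure at -134 to -125 and at -84 to -75, and TATAA at -40 to -36. Lrat had 1 such box, at -209 to -200, and TATAA at -28 to -24. Reln had neither, but 4 GGGCGG in a window of 79.0% G and C, against 56.0% in Acta2 and 61.3% in Lrat. Of 33469 promoter windows of the same length in the table, 7.12% held a box with 1 departure, 1.45% an exact box, and 1.22% boxes of either kind at 2 or more places. TATAA was present in 22.7% and GGGCGG in 29.5%, searched on both strands. The motifs do not overlap each other in these windows. The windows of Des and Vim held no CArG box of either kind. Such matches describe letters in a window and are not shown to be bound.

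Among the contractile genes, Acta2 encodes smooth muscle alpha-actin, the usual protein marker of an activated stellate cell. Acta2 stood at 2.43, 6.58, 8.51 and 9.72 CPM in KO-MCD, against 3.18, 0.656, 1.68 and 1.2 CPM in KO-CHOW. In the wild type it stood at 4.62, 11.6, 5.34 and 7.58 CPM in WT-MCD, against 6.95, 3.81, 7.08 and 5.71 CPM in WT-CHOW. In the knockout 3 of 4 MCD libraries lay above every chow library, and the library labelled KO-MCD replicate 1 lay below KO-CHOW replicate 1. In the wild type the diet groups overlapped.

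Acta2 rose in the knockout by 2.01 ± 0.47 (adjusted p = 0.00342, edgeR), to 6.81 ± 3.19 CPM in KO-MCD, against 1.68 ± 1.08 CPM in KO-CHOW (SD, n = 4 each). Its fold in the wild type was 0.31 ± 0.42 (adjusted p = 0.587, edgeR), with 7.27 ± 3.12 CPM in WT-MCD and 5.89 ± 1.52 CPM in WT-CHOW. The means of KO-MCD, WT-MCD and WT-CHOW thus lay between 5.89 and 7.27 CPM, and KO-CHOW stood below them. The diet effect was 1.70 ± 0.63 larger in the knockout (unadjusted p = 0.0153, adjusted p = 1, edgeR), a difference that did not pass the test. The KO-CHOW values rest on 28, 6, 17 and 9 reads, for which the exact 95% Poisson intervals run from 0.241 to 4.60 CPM. Without the libraries labelled KO-MCD replicate 1 and KO-CHOW replicate 4 the fold in the knockout was 2.17 (adjusted p = 0.0013, edgeR). With that index as a term of the model it was 1.11 and missed the threshold (adjusted p = 0.0999, edgeR).

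Tagln encodes transgelin, an actin-binding protein that is abundant in smooth muscle. Tagln stood at 10.2, 8.99, 9.31 and 9.99 CPM in KO-MCD, against 10.9, 3.17, 4.06 and 5.76 CPM in KO-CHOW. It stood at 9.39, 20.0, 12.9 and 9.09 CPM in WT-MCD, against 17.7, 8.27, 17.3 and 12.4 CPM in WT-CHOW. KO-CHOW replicate 1 was the exception among the knockout chow libraries, above all 4 of KO-MCD. The fold for diet was 0.69 ± 0.35 in the knockout (adjusted p = 0.124, edgeR) and -0.11 ± 0.33 in the wild type (adjusted p = 0.817, edgeR). Without KO-CHOW replicate 1 the knockout fold was 1.16 and passed (adjusted p = 0.013, edgeR), so this library decides the call.

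Myl9 encodes the regulatory light chain of smooth muscle myosin, whose phosphorylation starts contraction. Myl9 stood at 12.0, 10.6, 11.9 and 12.7 CPM in KO-MCD, against 19.4, 11.5, 14.6 and 12.7 CPM in KO-CHOW. It stood at 15.6, 13.6, 11.0 and 10.6 CPM in WT-MCD, against 20.0, 19.1, 27.6 and 19.5 CPM in WT-CHOW. The wild-type diet groups did not overlap, with MCD below chow as for 18% of all genes, while the knockout groups did. Myl9 fell in the wild type by 0.76 ± 0.19 on the log2 scale (adjusted p = 0.0056, edgeR), to 12.7 ± 2.34 CPM in WT-MCD, against 21.5 ± 4.05 CPM in WT-CHOW (SD, n = 4 each). The fold in the knockout was -0.30 ± 0.19 (adjusted p = 0.208, edgeR). The diet effect was 0.46 ± 0.26 more positive in the knockout (unadjusted p = 0.1, adjusted p = 1, edgeR). With library totals in place of TMM factors, which puts the median fold of all genes at 0.77 in the knockout and 0.53 in the wild type, Myl9 was at 0.43 and -0.22 and not called (adjusted p = 0.0637 and 0.351, edgeR), in each case below that median.

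The 3 contractile genes differed in their diet calls: Acta2 was called higher in the knockout, Myl9 lower in the wild type and Tagln in neither. The folds of Acta2, Tagln and Myl9 were 2.01, 0.69 and -0.30 in the knockout and 0.31, -0.11 and -0.76 in the wild type. Their order was thus the same in both genotypes. The difference of the diet effects was called for none of them, and the genes were not tested against each other. Across the 16 libraries, after the mean of each group was subtracted from log2 CPM, Pearson's r was 0.638 between Acta2 and Tagln, 0.601 between Tagln and Myl9 and 0.458 between Acta2 and Myl9. These are descriptions over 16 libraries that share depth and message quality. Of all genes tested, Acta2 was the one most like Tagln over the 16 libraries (r = 0.812), followed by Lpar1 (0.81) and Carf (0.802), and after group means were subtracted Purg (0.881) came first.

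Des and Vim encode the intermediate filament proteins desmin and vimentin, the first found in muscle and rat stellate cells, the second in most mesenchymal cells. Des ranged from 4.73 to 7.01 CPM in KO-MCD and from 2.73 to 8.43 CPM in KO-CHOW, against 3.41 to 6.33 CPM in WT-MCD and 2.32 to 5.20 CPM in WT-CHOW. All 4 groups overlapped, and the highest library of the 16 was the one labelled KO-CHOW replicate 4. The diet fold was 0.38 ± 0.35 in the knockout (adjusted p = 0.407, edgeR) and 0.36 ± 0.35 in the wild type (adjusted p = 0.453, edgeR). Without that library the knockout fold was 0.92 and was called (adjusted p = 0.0242, edgeR), and without it and the library labelled KO-MCD replicate 1 it was 0.98 (adjusted p = 0.0178, edgeR).

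Vim stood at 44.7, 47.9, 41.5 and 48.8 CPM in KO-MCD, against 29.8, 29.4, 36.8 and 21.3 CPM in KO-CHOW. It stood at 44.6, 72.5, 44.8 and 44.7 CPM in WT-MCD, against 53.0, 48.1, 71.1 and 18.3 CPM in WT-CHOW. The knockout diet groups did not overlap, with MCD above chow as for 17.6% of all genes (14% the other way), whereas WT-CHOW held both the lowest library of the 16 and the second highest. The fold in the knockout, 0.64 ± 0.30, did not pass the test (adjusted p = 0.0967, edgeR), and the fold in the wild type was 0.12 ± 0.30 (adjusted p = 0.778, edgeR). Without WT-CHOW replicate 4, which enters through the estimate of spread shared by all groups, the knockout fold was 0.64 and was called (adjusted p = 0.0173, edgeR). Col1a1, the chain of type I collagen, had the pattern most like Vim over the 16 libraries (r = 0.921), and Pf4, a platelet chemokine, after group means were subtracted (r = 0.918).

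Reln, the secreted glycoprotein, had the same direction of change in both genotypes. Reln stood at 23.1, 73.3, 66.7 and 77.9 CPM in KO-MCD, against 22.9, 22.2, 23.7 and 15.5 CPM in KO-CHOW. It stood at 75.4, 77.3, 48.7 and 69.2 CPM in WT-MCD, against 25.7, 28.1, 23.5 and 18.7 CPM in WT-CHOW. In the wild type every MCD library lay above every chow library, as for 20.1% of all genes. In the knockout the same held for 3 MCD libraries, while the library labelled KO-MCD replicate 1 had a chow-like level.

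Reln rose by 1.51 ± 0.29 in the knockout (adjusted p = 0.00101, edgeR), to 60.2 ± 25.2 CPM in KO-MCD, against 21.1 ± 3.75 CPM in KO-CHOW. It rose by 1.49 ± 0.29 in the wild type (adjusted p = 0.00131, edgeR), to 67.7 ± 13.1 CPM in WT-MCD, against 24.0 ± 3.97 CPM in WT-CHOW. The diet effects differed by 0.02 ± 0.41 between genotypes (adjusted p = 1, edgeR). Reln moved with the long minus short index more closely than any other of the 9 genes, with r = 0.947 over the 16 libraries and 0.943 after group means were subtracted. In the libraries labelled KO-MCD replicate 1 and KO-CHOW replicate 4 and in WT-CHOW replicate 4, Reln was the lowest of its group, as was the index. With the index in the model the rise was 0.60 in the knockout (adjusted p = 0.0131, edgeR) and 0.66 in the wild type (adjusted p = 0.00755, edgeR), both still called. Without the 3 libraries that stood apart it was 1.66 and 1.39. The genes most like Reln over the 16 libraries were Cttnbp2nl (r = 0.977), Lamc1 (0.976) and Dync1h1 (0.974), and Dync1h1 is itself a long-message gene of the index. After group means were subtracted they were Incenp (0.969), Stab2 (0.963), a scavenger receptor of sinusoidal endothelium, and Tln1 (0.959).

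**Figure D2:**
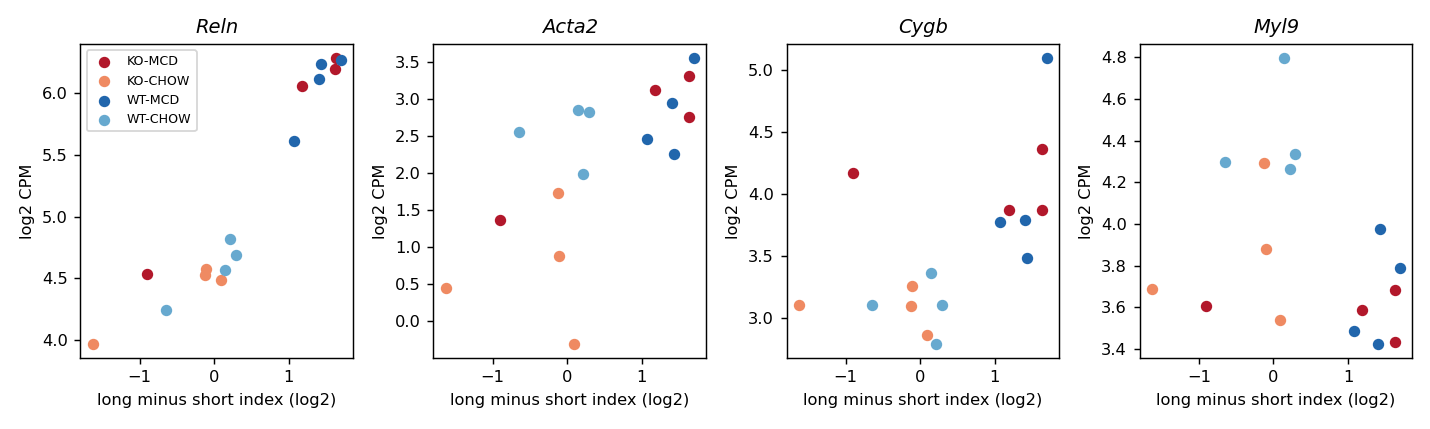
Log2 CPM of Reln, Acta2, Cygb and Myl9 (vertical axis) against the long minus short index (horizontal axis, log2, relative to the mean of WT-CHOW) in the 16 libraries, coloured by KO-MCD, KO-CHOW, WT-MCD and WT-CHOW. Reln follows the index within groups (r = 0.943 after group means are subtracted), while Cygb does not (r = 0.0253).

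Cygb encodes cytoglobin, an oxygen- and nitric oxide-binding globin which in liver marks stellate cells. Cygb stood at 17.9, 20.4, 14.5 and 14.5 CPM in KO-MCD, against 8.40, 7.11, 9.41 and 8.43 CPM in KO-CHOW. It stood at 11.1, 34.0, 13.5 and 13.7 CPM in WT-MCD, against 8.44, 6.79, 10.1 and 8.47 CPM in WT-CHOW. The diet groups did not overlap in either genotype, which among all genes was the case for 31.6% in the knockout and 38% in the wild type (20.1% with MCD above chow). WT-MCD replicate 2, at 34.0 CPM, stood far above the other libraries of its group.

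Cygb rose by 1.01 ± 0.29 in the knockout (adjusted p = 0.012, edgeR), to 16.8 ± 2.88 CPM in KO-MCD, against 8.34 ± 0.943 CPM in KO-CHOW. It rose by 1.10 ± 0.29 in the wild type (adjusted p = 0.00875, edgeR), to 18.1 ± 10.7 CPM in WT-MCD, against 8.45 ± 1.36 CPM in WT-CHOW. Without WT-MCD replicate 2 the wild-type rise was 0.60 and was still called (adjusted p = 0.0266, edgeR). With the index in the model the rises were 0.96 (adjusted p = 0.049, edgeR) and 1.05 (adjusted p = 0.0407, edgeR). Over the 16 libraries the genes most like Cygb were Oxct1 (r = 0.926), an enzyme of ketone body use, Lyz2 (0.92), a lysozyme of macrophages, and Gpr153 (0.919). After group means were subtracted, they were Sulf1 (r = 0.883), a sulfatase acting on heparan sulfate, Serpinh1 (0.883), the collagen chaperone, and Col5a2 (0.85), a chain of type V collagen.

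Lrat, the enzyme that loads retinol into storage esters, did not pass the test in any comparison with TMM factors. Lrat ranged from 32.1 to 56.0 CPM in KO-MCD and from 32.2 to 34.3 CPM in KO-CHOW, against 24.8 to 55.4 CPM in WT-MCD and 20.5 to 33.4 CPM in WT-CHOW. Its spread was wider on MCD, with an SD of 10.4 CPM in KO-MCD and 0.993 CPM in KO-CHOW, against 15.9 CPM in WT-MCD and 6.29 CPM in WT-CHOW. The diet fold was 0.29 ± 0.25 in the knockout (adjusted p = 0.371, edgeR) and 0.41 ± 0.25 in the wild type (adjusted p = 0.217, edgeR). With library totals in place of TMM factors it was 1.00 and 0.95 and was called (adjusted p = 0.0016 and 0.00336, edgeR), where the median fold of all genes was 0.77 and 0.53. In WT-MCD replicates 1 and 2 stood above 51 CPM and replicates 3 and 4 below 28 CPM. The expected counts of Lrat were whole numbers in 0 of 16 libraries, those of Cygb in 1 and those of Acta2 in 3, so some reads of these genes were shared with other rows, and how many cannot be told from the counts. The other 6 genes had whole counts in all 16 libraries.

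Lox encodes lysyl oxidase, which cross-links collagen and elastin outside the cell. Lox had few reads, 2 to 73 a library. Its levels were 1.11, 3.26, 1.09 and 0.773 CPM in KO-MCD, against 5.11, 2.30, 3.56 and 0.268 CPM in KO-CHOW. They were 0.833, 4.77, 2.00 and 0.518 CPM in WT-MCD, against 2.87, 0.837, 0.578 and 2.66 CPM in WT-CHOW. All groups overlapped, and the SE of its folds, 0.74 in the knockout and 0.75 in the wild type, was the largest of the 9. The diet fold was -0.85 in the knockout (adjusted p = 0.37, edgeR) and 0.18 in the wild type (adjusted p = 0.873, edgeR). The 95% Poisson interval of the library labelled KO-CHOW replicate 4, with 2 reads, ran from 0.0324 to 0.967 CPM.

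Between genotypes on chow, 0 of the 9 genes were called, where 0.00896% of all genes were. An unadjusted p under 0.05 was reached by 4 of the 9 and by 1153 of all genes tested, and all 4 of these folds were negative. They were Acta2 at -1.79 ± 0.48 (adjusted p = 0.395, edgeR), Tagln at -1.22 ± 0.35 (adjusted p = 0.413, edgeR), Vim at -0.70 ± 0.30 (adjusted p = 0.473, edgeR) and Myl9 at -0.56 ± 0.19 (adjusted p = 0.449, edgeR). For Acta2 every KO-CHOW library lay below every WT-CHOW library, which was the case for 2.59% of all genes, and in either direction for 4.34%. DESeq2 called 23 genes in this comparison and none of the 9. Without the 3 libraries that stood apart 516 genes were called, Vim among them at -0.84 (adjusted p = 0.0332, edgeR), and Acta2 was at -1.68 (adjusted p = 0.057, edgeR). The folds of the identity genes were -0.19 ± 0.29 for Reln, 0.17 ± 0.26 for Lrat and -0.01 ± 0.30 for Cygb. Lox stood at 0.67 ± 0.76 and Des at 0.11 ± 0.37.

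Between genotypes on MCD, 0 of the 9 genes were called and 0 of all genes were, a share of 0%. Tspo, the targeted gene, was itself not called, at -2.07 ± 0.45 (unadjusted p = 0.00029, edgeR). On chow it was at -1.23 ± 0.49, also not called (adjusted p = 0.46, edgeR). Without the 3 libraries that stood apart, which include the knockout libraries with high Tspo, it was called on MCD at -2.68 (adjusted p = 4.88e-05, edgeR). The lack of calls therefore does not show that genotype had no effect. No gene of the 9 reached an unadjusted p under 0.05, and 81 of all genes tested did. DESeq2 called 0 genes as well. The 9 folds ran from -0.42 ± 0.33 for Tagln to 0.13 ± 0.34 for Des, with 7 negative and 2 positive. For the difference of the diet effects 0 of the 9 were called and 0% of all genes, by edgeR, and an unadjusted p under 0.05 was reached by Acta2 alone of the 9 and by 330 of all genes. DESeq2 called 1 gene in this comparison and none of the 9. The differences ran from -1.03 ± 1.05 for Lox to 1.70 ± 0.63 for Acta2.

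**Figure D3:**
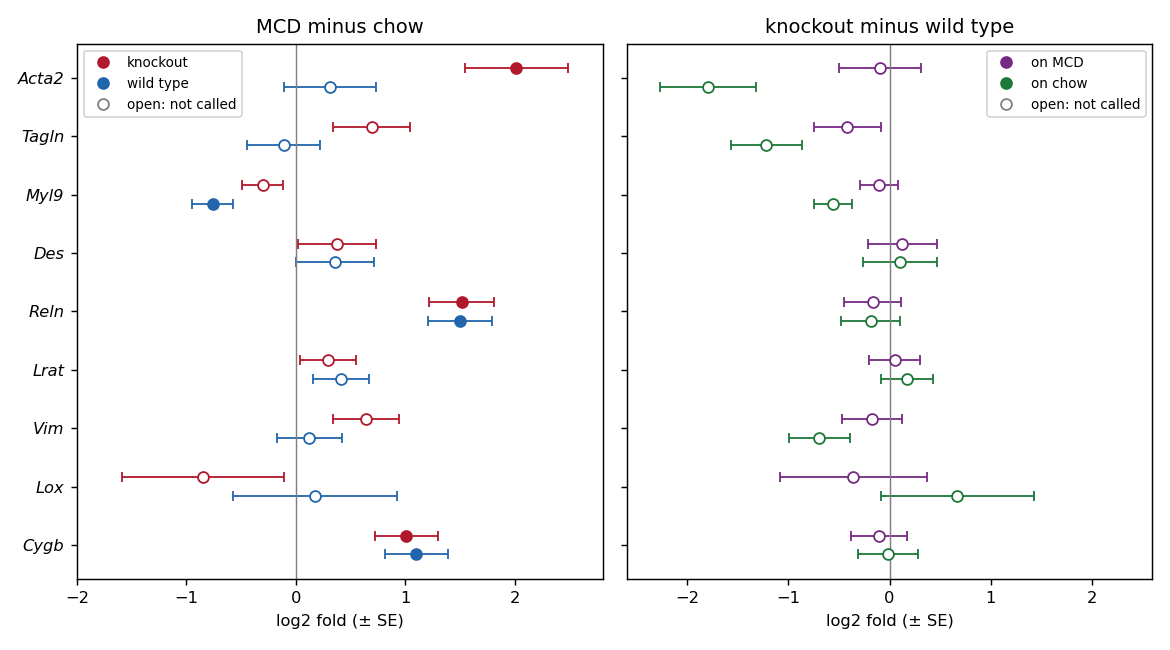
Log2 fold with SE of the 9 genes for MCD minus chow (left; knockout above wild type in each pair) and for knockout minus wild type (right; MCD above chow); filled points passed an adjusted p under 0.05. Filled points are Acta2, Reln and Cygb in the knockout and Myl9, Reln and Cygb in the wild type, and no point on the right is filled.

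Other genes of these functions were taken from lists of known markers and pathway genes. For comparison with the counts of each list, 21.9% of all genes rose and 18.5% fell in the knockout, and 18.2% rose and 15.9% fell in the wild type. Of 22 further stellate cell genes tested, 10 rose and 2 fell with MCD in the knockout, and 7 rose and 3 fell in the wild type. Their median fold was 0.47 in the knockout, against 0.041 over all genes, and 0.41 in the wild type, against -0.00224. Ednrb, the endothelin B receptor, rose by 2.61 ± 0.38 in the knockout (adjusted p = 0.000103, edgeR) and by 2.08 ± 0.35 in the wild type (adjusted p = 0.000452, edgeR). Ednra, the endothelin A receptor, fell by 1.77 and 1.43 on the log2 scale (adjusted p = 0.00761 and 0.0266, edgeR), opposite to Ednrb; it was picked out after its values were seen. Hgf, the hepatocyte growth factor that stellate cells secrete, rose by 2.06 ± 0.31 in the knockout and 1.93 ± 0.31 in the wild type (adjusted p = 0.000145 and 0.000282, edgeR). Pdgfra, a receptor for platelet-derived growth factor, rose by 1.34 ± 0.21 and 1.55 ± 0.21 (adjusted p = 0.000203 and 7.26e-05, edgeR). The fold of Pdgfrb, the receptor most tied to stellate cell growth, also picked out afterwards, was 0.62 ± 0.31 in the knockout and 0.25 ± 0.30 in the wild type (adjusted p = 0.119 and 0.553, edgeR). With the index in the model, 7 of the 22 rose and 1 fell in the knockout, and 7 rose and 2 fell in the wild type. In that fit Ednrb was at 1.93 and 1.38 and Pdgfra at 0.88 and 1.09, all still called.

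Of 22 further genes of the smooth muscle contractile apparatus tested, 9 rose and 3 fell in the knockout and 7 rose and 4 fell in the wild type. The tropomyosin Tpm4 rose by 1.5 ± 0.24 in the knockout and by 1.08 ± 0.23 in the wild type (adjusted p = 0.000214 and 0.00249, edgeR), and Tpm1, another tropomyosin, rose by 0.55 ± 0.14 and 0.69 ± 0.14 (adjusted p = 0.00711 and 0.00207, edgeR). Synpo2, an actin-bundling protein, rose by 3.33 ± 0.57 in the knockout (adjusted p = 0.000392, edgeR), to 2.31 ± 1.41 CPM in KO-MCD, against 0.219 ± 0.0669 CPM in KO-CHOW. Csrp1, a LIM protein of the actin cytoskeleton, fell by 2.07 ± 0.29 in the knockout and by 1.57 ± 0.28 in the wild type on the log2 scale (adjusted p = 7.68e-05 and 0.000722, edgeR). Mylk, the kinase that phosphorylates the light chain encoded by Myl9, rose by 0.95 ± 0.24 in the knockout and by 0.80 ± 0.24 in the wild type (adjusted p = 0.00601 and 0.018, edgeR). With the index in the model 6 rose and 2 fell in the knockout and 2 rose and 3 fell in the wild type, and Mylk was no longer called in either (adjusted p = 0.21 and 0.388, edgeR). In the same fit Tpm4 was at 1.13 and 0.66 and Csrp1 at -1.48 and -0.95, all still called. Of serum response factor (Srf) and the factors listed with it, 3 were tested: Srf, Tead1 and Fhl2. Myocd did not pass the filter, and Mrtfa and Mrtfb were not found among the deposited genes. Srf averaged 22.91 CPM in KO-MCD and 22.52 CPM in KO-CHOW, against 22.05 CPM in WT-MCD and 19.37 CPM in WT-CHOW. The diet tests did not call Srf. Tead1 rose by 1.36 ± 0.41 in the knockout and 1.75 ± 0.41 in the wild type (adjusted p = 0.0161 and 0.00439, edgeR). Tead1 lost its call once the index was a term (adjusted p = 0.545 and 0.0855, edgeR). Fhl2, a LIM-only cofactor, rose by 2.06 ± 0.43 in the knockout (adjusted p = 0.00167, edgeR).

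Of 15 retinoid genes tested, 2 rose and 3 fell in the knockout and 2 rose and 4 fell in the wild type. Without the 3 libraries that stood apart 5 rose and 4 fell in the knockout. Lpl, lipoprotein lipase, rose by 3.11 ± 0.26 in the knockout and by 2.75 ± 0.25 in the wild type (adjusted p = 1.06e-06 and 2.65e-06, edgeR). Aldh1a1, which oxidises retinal to retinoic acid, rose by 1.67 ± 0.23 and 2.02 ± 0.23 (adjusted p = 6.1e-05 and 1.68e-05, edgeR). Rbp4, the plasma retinol carrier made by hepatocytes, fell by 0.78 ± 0.19 and 0.97 ± 0.19 on the log2 scale (adjusted p = 0.00435 and 0.00122, edgeR). Of 6 reelin receptors and adaptors tested, 3 rose and 1 fell in the knockout and 4 rose and 1 fell in the wild type. Vldlr, a receptor for reelin, rose by 1.62 ± 0.37 in the knockout, to 2.56 ± 0.544 CPM in KO-MCD, against 0.836 ± 0.469 CPM in KO-CHOW (adjusted p = 0.00279, edgeR). It rose by 2.42 ± 0.37 in the wild type, to 3.61 ± 0.833 CPM in WT-MCD, against 0.673 ± 0.164 CPM in WT-CHOW (adjusted p = 0.000191, edgeR). Dab2, an endocytic adaptor, rose by 2.1 ± 0.21 and 1.27 ± 0.20 (adjusted p = 5.64e-06 and 0.000249, edgeR).

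Of 12 genes of the lysyl oxidase family and of collagen cross-linking, 4 rose and 1 fell in the knockout and 2 rose and 0 fell in the wild type. With the index in the model 1 rose and 0 fell in the knockout, and 1 rose and 1 fell in the wild type. Tgm2, a transglutaminase, rose by 0.81 ± 0.16 in each genotype (adjusted p = 0.00116 in the knockout and 0.00139 in the wild type, edgeR). Loxl2, a relative of Lox, rose by 1.30 ± 0.38 in the knockout and by 1.30 ± 0.37 in the wild type (adjusted p = 0.0128 and 0.0136, edgeR), and lost this call once the index was a term of the fit (adjusted p = 0.162 and 0.202, edgeR). Of 10 intermediate filament genes and partners, 6 rose in the knockout and 3 in the wild type, and 0 fell, and with the index in the model 4 rose in each. Cryab, a small heat shock protein that binds desmin, rose by 3.84 ± 0.39 in the knockout and by 2.76 ± 0.36 in the wild type (adjusted p = 6.5e-06 and 5.56e-05, edgeR). Plec, the cytoskeletal linker plectin, rose by 1.82 ± 0.28 and 1.30 ± 0.27 (adjusted p = 0.000152 and 0.00194, edgeR), and by 1.03 and 0.60 with the index as a term (adjusted p = 0.000577 and 0.0179, edgeR). Krt8, the keratin of hepatocytes and bile duct cells, rose by 1.05 ± 0.18 and 1.42 ± 0.19 (adjusted p = 0.000465 and 5.46e-05, edgeR). Between genotypes, and for the difference in diet effect, 0 genes of these lists were called by edgeR. Without the 3 libraries that stood apart, 2 of the 22 contractile genes and 1 of the 10 intermediate filament genes were called lower in the knockout on chow.

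Cells other than stellate cells make several of the 9 genes. The 10 vascular smooth muscle markers summed to 71 to 190.9 CPM in KO-MCD and 61.98 to 101.2 CPM in KO-CHOW, against 136.1 to 169.8 CPM in WT-MCD and 82.59 to 126.3 CPM in WT-CHOW, and 7 of them were tested. Of these 2 rose and 0 fell in the knockout (Synpo2 and Mylk), and 3 rose and 0 fell in the wild type (Synpo2, Mylk and Itga8). Myh11, Cnn1, Actg2, Lmod1, Synpo2, Smtn and Mylk are also on the contractile apparatus list above, so the lists are not separate. Once the index was a term, 1 rose and 1 fell in the knockout, and 0 rose and 1 fell in the wild type. Most of this sum was Mylk, at means of 113 CPM in KO-MCD and 58.6 CPM in KO-CHOW, against 127 CPM in WT-MCD and 73.0 CPM in WT-CHOW. Cnn1 and Actg2 averaged 0.103 to 0.339 CPM over the groups and did not pass the filter. Myh11 averaged 5.3 CPM in KO-MCD and 2.3 CPM in KO-CHOW, against 3.7 CPM in WT-MCD and 3.5 CPM in WT-CHOW. Smtn averaged 13.57 CPM in KO-MCD and 19.96 CPM in KO-CHOW, against 15.03 CPM in WT-MCD and 25.38 CPM in WT-CHOW. None of the 10 was at 0 in all libraries of a group. The 12 fibroblast markers in the table summed to 137.8 to 179.3 CPM in KO-MCD and 533.8 to 753.9 CPM in KO-CHOW, against 164.5 to 200.4 CPM in WT-MCD and 352.4 to 538.7 CPM in WT-CHOW. The dermatopontin gene Dpt, at 606 CPM in KO-CHOW and 442 CPM in WT-CHOW, made up most of it. Of the 8 tested, 3 rose and 1 fell in the knockout and 4 rose and 1 fell in the wild type. Gli1 and Mfap5 were at 0 in all KO-CHOW libraries, as was Mfap5 in WT-MCD. The 10 skeletal muscle markers summed to 0.6954 to 2.118 CPM in KO-MCD and 0.9085 to 2.008 CPM in KO-CHOW, against 1.274 to 2.166 CPM in WT-MCD and 0.4757 to 2.456 CPM in WT-CHOW. The 8 bile duct markers in the table summed to 83.72 to 138.7 CPM in KO-MCD and 24.5 to 51.56 CPM in KO-CHOW, against 86.99 to 148.9 CPM in WT-MCD and 31.11 to 55.19 CPM in WT-CHOW. Of the 7 tested 2 rose and 0 fell in each genotype: Spp1, which encodes osteopontin, by 3.15 in the knockout and 3.84 in the wild type (adjusted p = 0.000474 and 0.000161, edgeR), and Epcam, an epithelial adhesion protein, by 1.65 and 1.35 (adjusted p = 7.14e-06 and 3.75e-05, edgeR). The 10 endothelial markers summed to 201.4 to 366.8 CPM in KO-MCD and 177.2 to 256.6 CPM in KO-CHOW, against 205.8 to 307 CPM in WT-MCD and 245.5 to 276 CPM in WT-CHOW. Of these 4 rose and 0 fell in the knockout and 2 rose and 1 fell in the wild type, and with the index in the model 1 rose and 0 fell, and 1 rose and 1 fell. Vwf, von Willebrand factor, rose by 1.61 in the knockout and 1.66 in the wild type (adjusted p = 0.00189 and 0.00159, edgeR), and Cdh5, a cadherin of endothelial junctions, by 1.76 and 1.42 (adjusted p = 0.00203 and 0.00834, edgeR). With the index in the model, at most 1 of Vwf and Cdh5 was still called higher in each genotype. The 11 macrophage markers summed to 470.2 to 744.2 CPM in KO-MCD and 578 to 836.1 CPM in KO-CHOW, against 459.8 to 759.6 CPM in WT-MCD and 508.4 to 690 CPM in WT-CHOW, and 2 rose and 3 fell in the knockout and 2 rose and 2 fell in the wild type. No bile duct, endothelial or macrophage marker in the table was at 0 in all libraries of a group. The part of other cell types in the changes of the 9 genes was not tested.

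**Figure D4:**
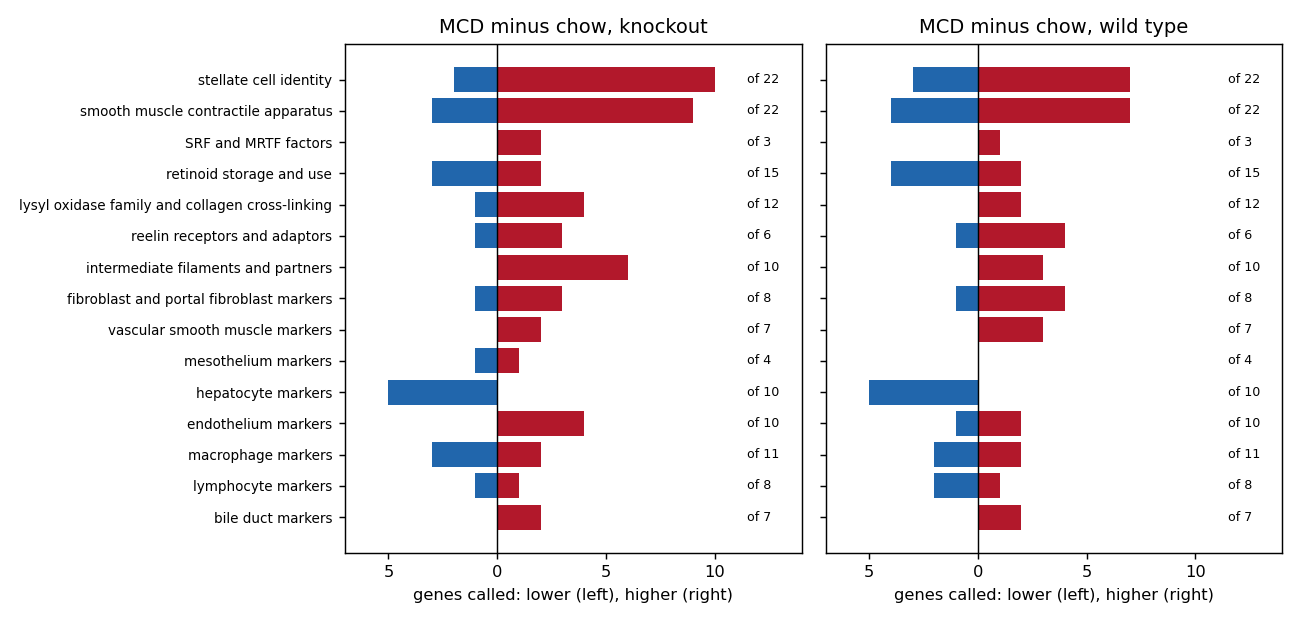
Number of tested genes of each list called lower (bars to the left) or higher (bars to the right) on MCD than on chow, in the knockout (left panel) and the wild type (right panel); the number tested stands beside each bar. Of 22 further stellate cell genes 10 rose and 2 fell in the knockout and 7 rose and 3 fell in the wild type. Of 10 hepatocyte markers 5 fell in each. Among all genes 21.9% rose and 18.5% fell in the knockout, and 18.2% rose and 15.9% fell in the wild type.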

How the data were processed

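Liver RNA enriched for mRNA was sequenced in 16 libraries made with a stranded kit, per the labels' protocols. The organism label is rat, while the series title speaks of mice. The authors deposited RSEM expected counts for 17168 genes by symbol; RSEM 1.2.15, Bowtie2 2.1.0 and rn6 appear, without roles, in the submitters' processing notes. Expected counts divide reads among genes they fit equally well. The authors also deposited a normalised signal, the rounded count times 1 constant per library, which served to check levels.

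Counts were rounded to whole numbers and tested in R 4.3.3 with edgeR 4.0.16 (filterByExpr, TMM, robust quasi-likelihood, 1 term per group, 12 residual degrees of freedom, all 16 libraries) in 5 contrasts. A call needs a p-value under 0.05 after Benjamini-Hochberg adjustment across the 11162 genes tested. The SE of a fold is its size over the square root of F. A prior count of 2 entered log2 CPM. Poisson intervals (95%) cover counting error only, since reads carry no molecular identifiers. No 2 libraries of a group agreed within sampling noise (chi-square per gene at least 15.25). Alternatives used DESeq2 1.42.0 and limma 3.58.1. The test was checked on simulated counts with 2-fold and 4-fold changes placed in KO-MCD. For diet in the knockout it recovered 35 of 98 2-fold and 91 of 100 4-fold changes. Between genotypes on MCD it recovered 46 of 98 and 89 of 100. For the difference of the diet effects it recovered 9 of 98 and 71 of 100. A gene that was not called may thus still have changed, above all for that difference.

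The members and gene lists were chosen with earlier results of these data known. From each list up to 3 called genes with the smallest p per contrast could be named, and for each member the 3 genes most like it; not all are described. The index lists were compiled for this work. All 9 symbols match RefSeq symbols; promoter coordinates are RefSeq's on GRCr8, not the authors' build.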

Additional observations from a re-analysis of the deposited data

Results flagged for a closer look

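In 9 of 44 groups of 4 libraries examined (the 9 genes, Tspo and the long minus short index in each group), 1 library stood apart by a gap past Dixon's critical value; chance alone gives about 1 in 20 such groups. In WT-MCD it was replicate 2 for Vim, at 72.53 CPM against 44.59 to 44.83 CPM in the others, and for Cygb, at 34.01 CPM against 11.05 to 13.66 CPM. The same library was also the highest of its group for Acta2, Tagln, Des, Lox, Lrat and Reln. Only for Myl9 was another library, replicate 1, the highest. In the library labelled KO-CHOW replicate 4, Des was high at 8.433 CPM against 2.734 to 3.18 CPM, Tspo was high at 4.417 CPM against 0.6561 to 1.287 CPM, and the index was low at -1.628 against -0.1234 to 0.09308. In WT-CHOW, Myl9 was high in replicate 3, at 27.59 CPM against 19.06 to 20.03 CPM, Lrat was low in replicate 1, at 20.49 CPM against 32.45 to 33.37 CPM, and the index was low in replicate 4, at -0.6459 against 0.1412 to 0.2881. Lox was high in KO-MCD replicate 2, at 3.263 CPM against 0.773 to 1.113 CPM.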

How the results depend on the processing

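Over 29 alternatives to the fit of the diet effect, Reln and Cygb were called in all 29 in both genotypes, Myl9 in the wild type and Acta2 in the knockout in 28. Levels recomputed from the deposited signal differed by -0.63% to 0.455%. With library totals and no factors 7 of the 9 genes were called in the knockout, all higher, and 6852 genes in all; in the wild type 4 were called, all higher, with Des (0.92) and Lrat (0.95) added and Myl9 (-0.22) lost. With library totals the median fold of all genes was 0.77 in the knockout and 0.53 in the wild type. Without the 3 libraries that stood apart 5 of the 9 were called in the knockout, Des and Vim being added, and 1, Vim, between genotypes on chow. Of all genes, 4514 of 11162 were called in the knockout as reported, and 2968 to 6852 over the 29 alternatives. In the wild type 3809 were called as reported, and 2832 to 5664 over the alternatives. With the index in the model 2968 genes were called in the knockout. Called genes between genotypes on chow numbered 1 as reported, 23 with DESeq2, 2 with library totals and with limma voom, 0 with only the 2 groups compared, 516 without the 3 libraries, 3 with the index and 4 without the 2 knockout libraries with high Tspo, an alternative chosen after seeing the data. On MCD 1 gene, Tspo, was called without the 3 libraries, with the index or without the 2 knockout libraries, against 0. For the difference of diet effects 1 was called with DESeq2 and without the 2 knockout libraries, and 20 without the 3 libraries, against 0. Leaving out 1 library at a time gave 3 to 4 of the 9 genes in the knockout and 3 to 3 in the wild type, and on chow 0 to 17 genes between genotypes.

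No label pairs the libraries by replicate number, and correlations do not settle whether they are paired. Of 24 same-number pairs, 7 had a correlation of deviations above 0.1 (range -0.381 to 0.511), and 4 of 16 libraries correlated best with their own number. Between KO-CHOW and WT-CHOW, replicates 1 to 4 were at 0.232, 0.179, -0.0666 and 0.511. With the replicate block the same 3 of 9 genes were called in each genotype and 0 between genotypes.

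Of 87 changes of sign, 0 involved a called value, and the cause was not tested. In the wild type with the index, Acta2 was at -0.58, Vim at -0.20 and Lox at -0.66; Vim was at -0.15 without the 3 libraries, Lox at -0.18 with the replicate block and -0.14 with voom, and Tagln at 0.41 with library totals. In the knockout Myl9 was at 0.43 with library totals. On chow, Des was at -0.16 with library totals, -0.29 without the 3 libraries, -0.027 with the index, -0.0017 with voom and -0.43 without the 2 knockout libraries; Reln was at 0.070 with the index, Lrat at -0.049 with library totals, and Cygb at 0.014 with DESeq2, 0.015 with its size factors, 0.0058 with the index and 0.0072 with voom. On MCD, without the 3 libraries, with the index and without the 2 knockout libraries, Acta2 was at 0.18, 0.10 and 0.18 and Reln at 0.10, 0.014 and 0.10; Lrat was at -0.0027 with library totals and Cygb at 0.034 with voom. In the difference of diet effects, Des was at -0.014 with DESeq2 and -0.013 with its size factors; Reln at -0.0098, -0.010, -0.011 with the block, -0.056 with the index and -0.11 with voom; Lrat at 0.047 and Cygb at 0.079 with library totals, and Cygb at 0.027 with voom.

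Leaving out 1 library gave, for the diet in the wild type, Tagln -0.41 to 0.024, Vim -0.15 to 0.38 and Lox -0.68 to 0.51; in the knockout Tspo -0.47 to 0.95; on chow, Des -0.43 to 0.27 and Cygb -0.11 to 0.079. On MCD it gave Acta2 -0.32 to 0.22, Myl9 -0.18 to 0.0074, Des -0.015 to 0.26, Reln -0.31 to 0.10, Lrat -0.13 to 0.25, Vim -0.24 to 0.032, Lox -1.02 to 0.50 and Cygb -0.28 to 0.40. For the difference it gave Des -0.14 to 0.56, Reln -0.13 to 0.29, Lrat -0.31 to 0.081 and Cygb -0.26 to 0.41. Depth limits Lox (2 to 73 reads) and Acta2 in KO-CHOW (6 to 28 reads) most.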
